A study of Oryza sativa Indica Group with 23 samples.

Results

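BURP10 and BURP2 are 2 rice genes that encode proteins with a BURP domain, a carboxy-terminal domain found in plant proteins. They were chosen from earlier results on these same arrays, as genes whose root transcript levels differed between salt-treated and control plants in the mean of 4 genotypes, BURP10 being higher and BURP2 lower in salt. They are 2 of the 17905 genes that had at least 1 probe set of their own on the array, that is, a probe set assigned to that gene alone. BURP10 (LOC4340763) was read by 1 such probe set. BURP2 (LOC4338119) was read by 2. The one with the higher mean over all arrays is called its main probe set, and the second carries the suffix x, which marks probes that can also bind transcripts of other genes.

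The domain takes its name from the first proteins in which it was recognised, the microspore protein BNM2, the seed protein USP, the dehydration-responsive protein RD22 of Arabidopsis and the non-catalytic beta subunit of tomato polygalacturonase. Several BURP proteins are secreted to the cell wall, where the polygalacturonase beta subunit of tomato influences how pectin is taken apart. Transcripts of RD22 accumulate in Arabidopsis under drought, salt and abscisic acid, which is why the family is often examined under water shortage and salinity.

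The study compared roots of salt-treated and control plants of Oryza sativa, indica group. The salt groups were FL478, IR63731, Pokkali and IR29 with 3 arrays each (12 in all), and the control groups were the same genotypes with 3, 3, 3 and 2 arrays (11 in all). Pokkali is known as a salt-tolerant variety, IR29 as a sensitive one, and FL478 as a tolerant inbred line from a cross between IR29 and Pokkali; for IR63731 the labels give the name alone. All plants grew in sand with nutrient solution and were harvested on day 30. In the salt groups NaCl and CaCl2 were added from day 22, in 2 steps over 3 days, to an electrical conductivity of 7.4 dS per m, whereas control plants had nutrient solution throughout. The labels call the arrays of a group biological replicates, so p-values measure the spread between those samples. Whole roots were extracted, and fewer cells of a type cannot be told apart from less RNA per cell.

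Values are normalised log2 intensities, on which a difference of 1 is a factor of 2. The median over all rice probe sets of an array lay between 4.31 and 4.41. Precision is limited by how few arrays each group holds. The tissue label was checked on 8 root marker genes, whose levels differed widely. The silicon transporter genes LSI1 and LSI2 and the manganese transporter gene NRAMP5 lay at 9.66 or above in every array, the sodium transporter gene HKT1;5 ranged over 3.91 to 8.67, and SHR1, SCR1, PHT1 and CSLD1 lay between 4.15 and 7.14. For each genotype, 85 to 148 probe sets stood at a level of their own, and each array was placed on a scale from 0 (the level of the other genotypes) to 1 (that genotype's level). On this scale 20 arrays lay at 0.92 to 1.04 for their own genotype. FL478 salt replicate 2 lay at 0.387 on the FL478 scale and at 0.598 on the IR63731 scale. FL478 control replicate 3 lay at 0.806 and 0.218 on these scales. IR29 control replicate 1 lay at 0.548 on the IR29 scale and at 0.479 on the IR63731 scale. These 3 arrays are called the arrays between genotypes. The results they touch most are given with and without them.

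The BURP10 probe set was higher in salt roots of every genotype, with no overlap between the salt and the control arrays of any genotype. In FL478 roots it had 7.61, 9.09 and 9.50 in salt, against 5.68, 5.22 and 5.95 in control. In IR63731 roots the values were 9.98, 9.86 and 10.23 in salt and 9.20, 8.57 and 7.25 in control. The control arrays of IR63731 were high enough to overlap the salt arrays of the other genotypes, while its 3 salt arrays lay within 0.37 of each other. Pokkali roots had 7.84, 7.46 and 9.21 in salt against 6.87, 6.31 and 7.0 in control, and IR29 roots had 9.69, 9.15 and 9.35 in salt against 6.44 and 6.75 in control. Of the 4 genotypes Pokkali had the narrowest gap, its lowest salt array lying just above its highest control array.

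The BURP2 main probe set was lower in salt on average in every genotype, and its level in Pokkali was far below that in FL478 and IR63731. FL478 roots had 10.62, 8.52 and 8.91 in salt and 11.24, 11.98 and 10.74 in control, so that salt and control arrays did not overlap, though the highest salt array almost reached the lowest control array. IR63731 roots had 10.71, 9.62 and 8.91 in salt and 10.50, 11.41 and 11.79 in control, with 1 salt array above the lowest control array. Pokkali roots were low in both treatments, at 5.41, 5.99 and 5.62 in salt and 6.04, 5.75 and 6.23 in control, and these arrays overlapped. IR29 roots had 6.45, 5.66 and 5.90 in salt against 10.65 and 7.65 in control. The IR29 salt arrays at 5.66 and 5.90 thus lay in the range of Pokkali, and the one at 6.45 lay just above it. The first IR29 control array, the one placed between IR29 and IR63731, lay in the range of the IR63731 control arrays.

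**Figure D1:**
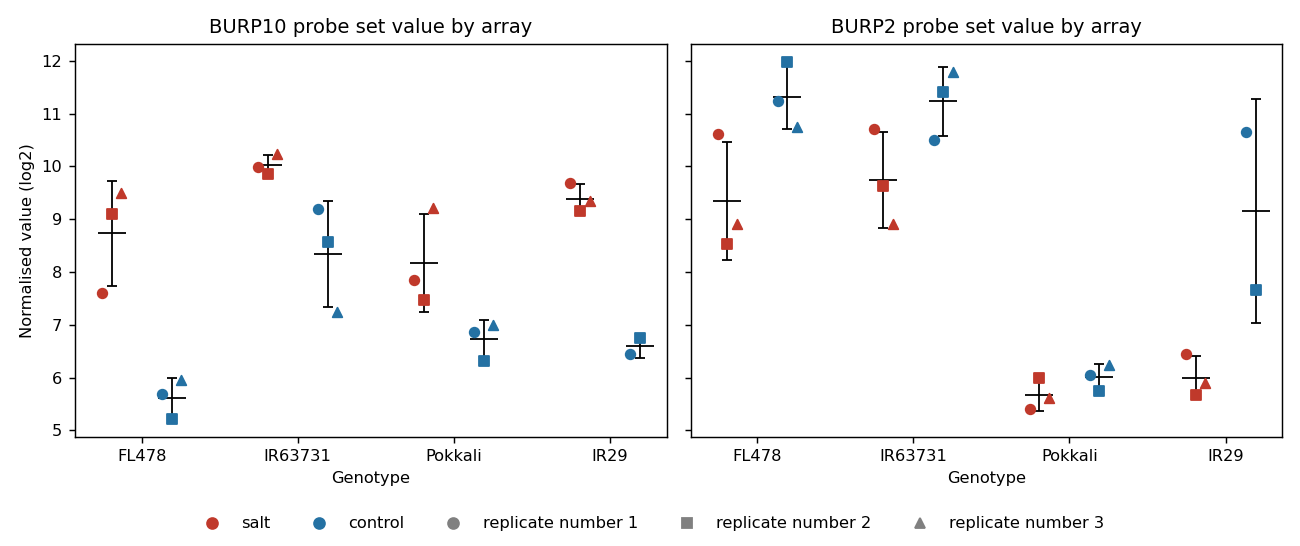
Normalised value (log2, vertical axis) of the BURP10 probe set and the BURP2 main probe set in each array, by genotype, with salt (red) left of control (blue) and symbols for replicate numbers; bars are the group mean and SD of 3 arrays (2 for IR29 control). BURP10 lay higher in salt without overlap in every genotype, and BURP2 lay at 5.41 to 6.45 in salt roots of Pokkali and IR29 but at 8.52 to 10.71 in those of FL478 and IR63731.

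Because the difference between salt and control chose the genes, its size is given as a description, without a test. BURP10 was higher in salt by 3.12 in FL478 (SE 0.49, 8.69-fold), by 1.68 in IR63731 (SE 0.49, 3.22-fold), by 1.45 in Pokkali (SE 0.49, 2.73-fold) and by 2.80 in IR29 (SE 0.54, 6.98-fold) on the log2 scale. The 2 largest differences were thus in the line FL478 and in IR29, one of its parents. BURP2 was lower in salt, with differences of -1.97 in FL478 (SE 0.63), -1.48 in IR63731 (SE 0.63), -0.33 in Pokkali (SE 0.63) and -3.15 in IR29 (SE 0.70). The IR29 value stood on 2 control arrays that were 3.00 apart: it was -1.65 without IR29 control replicate 1 and -4.65 without IR29 control replicate 2.

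Averaged over the 4 genotypes with equal weight, the salt difference of BURP10 was 2.26 (SE 0.25) and that of BURP2 was -1.73 (SE 0.32). Without the 3 arrays between genotypes they were 2.22 and -1.33. Set against the mean of the control arrays of the same genotype, each of the 12 salt arrays was higher for BURP10 and each of the 12 was lower for BURP2. For BURP2 this includes Pokkali salt replicate 2, at 5.99 against a control mean of 6.01. The share of all probe sets with such counts was not computed. Salt arrays stood above control arrays with no overlap in all 4 genotypes, as for BURP10, in 0.587% of the 57194 rice probe sets, and they stood below with no overlap in at least 2 genotypes, as for BURP2, in 6.31%. Nothing is read from these counts and shares, since this contrast chose the genes.

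The second BURP2 probe set covered a smaller range, at 5.40 to 7.26 over the 23 arrays. Its salt differences had the sign of the main probe set in each genotype and were smaller, at -0.54 in FL478 (SE 0.30), -0.29 in IR63731 (SE 0.30), -0.22 in Pokkali (SE 0.30), -0.72 in IR29 (SE 0.34) and -0.44 in the mean of 4 genotypes (SE 0.16). Its salt and control arrays overlapped in every genotype. Over the 23 arrays, which share plants and normalisation, the 2 probe sets of BURP2 had a Pearson r of 0.899 and a Spearman rho of 0.863, so they ordered the arrays in much the same way on different scales. IR29 control replicate 1 had 7.26, the highest of all 23 values, and IR29 control replicate 2 had 5.74.

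**Figure D2:**
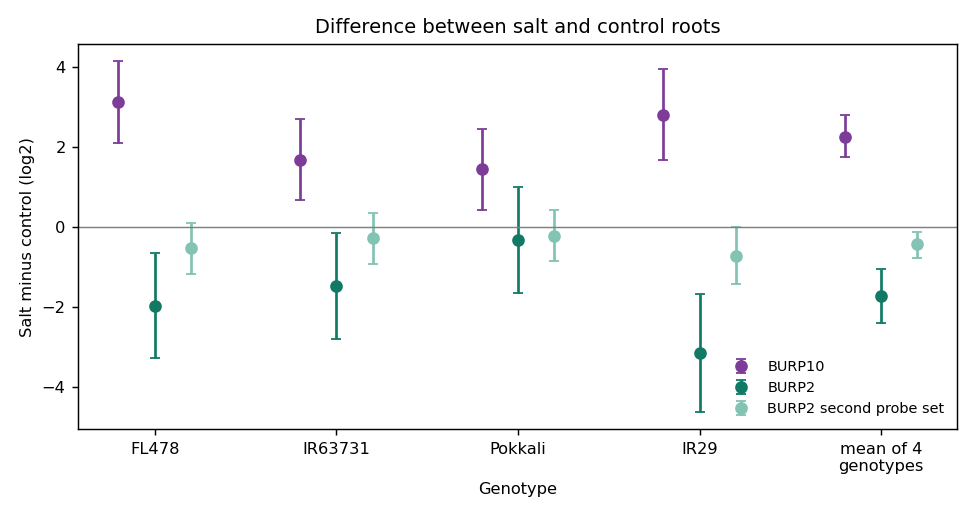
Difference between salt and control roots (log2, vertical axis) in each genotype and in the mean of 4 genotypes, for BURP10, BURP2 and the second BURP2 probe set; points are estimates of 1 linear model over 23 arrays and bars their 95% confidence intervals. BURP10 lay between 1.45 and 3.12 in the 4 genotypes and BURP2 between -3.15 and -0.33.

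Differences between genotypes were not used to choose the genes, and each was tested with limma over all 57194 rice probe sets with Benjamini-Hochberg adjustment, a call being an adjusted p under 0.05. In salt roots BURP2 differed between the 4 genotypes (F = 23.4, adjusted p = 0.000109), as did 8.09% of probe sets. In control roots BURP2 differed as well (F = 31.3, adjusted p = 2.28e-05), as did 6.68% of probe sets. Both calls remained with any 1 array left out. Leaving out all 3 arrays between genotypes gave adjusted p-values of 5.33e-06 in salt and 1.09e-06 in control roots.

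In salt roots the BURP2 main probe set fell into 2 levels. Whether the lower level, at 5.41 to 6.45, exceeds background was not tested, so the folds below are differences in signal. FL478 had a mean of 9.35 ± 1.12 and IR63731 one of 9.75 ± 0.91, against 5.67 ± 0.30 in Pokkali and 6.0 ± 0.40 in IR29 (SD, n = 3 each). FL478, although derived from IR29 and Pokkali, was higher than both: by 3.35 over IR29 (SE 0.63, 10.2-fold, adjusted p = 0.0035, limma) and by 3.68 over Pokkali (SE 0.63, 12.8-fold, adjusted p = 0.00132). These 2 pair contrasts were passed by 3.74% and 3.05% of probe sets. IR63731 was higher than IR29 by 3.75 (SE 0.63, limma adjusted p = 0.00114) and than Pokkali by 4.08 (SE 0.63, adjusted p = 0.000391), where 2.94% and 3.30% of probe sets passed.

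Within each of those levels no difference was called. IR63731 minus FL478 was 0.40 in salt roots (95% confidence interval -0.92 to 1.72, adjusted p = 0.918, with 1.30% of probe sets called), and Pokkali minus IR29 was -0.33 (-1.65 to 0.99, adjusted p = 0.901, 6.34% called). These intervals leave room for differences of more than 2-fold. All 4 called pairs remained with any 1 array left out. FL478 salt replicate 2, the array nearer to IR63731, was the lowest of the 3 FL478 salt arrays for BURP2, and without the 3 arrays between genotypes FL478 was 3.76 above IR29 and 4.10 above Pokkali.

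In control roots the means of BURP2 were 11.32 ± 0.62 in FL478, 11.23 ± 0.66 in IR63731 and 6.01 ± 0.24 in Pokkali (SD, n = 3 each), and 9.15 ± 2.12 in IR29 (SD, n = 2). FL478 was higher than Pokkali by 5.31 (SE 0.63, 39.7-fold, adjusted p = 1.81e-05) and IR63731 by 5.23 (SE 0.63, 37.4-fold, adjusted p = 2.09e-05), in contrasts passed by 4.36% and 3.60% of probe sets. These differences were 5.60 and 5.23 without the 3 arrays between genotypes. They are differences in signal of the main probe set, where the second probe set gave 1.89-fold and 1.98-fold. Whether the genotypes differ in sequence under the probes was not tested, nor was whether the low Pokkali values exceed background. IR63731 minus FL478 was -0.09 (95% confidence interval -1.41 to 1.23), where 2.44% of probe sets passed.

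The place of IR29 in control roots depended on its first array. Pokkali minus IR29 was -3.15 (SE 0.70, adjusted p = 0.0121, 4.15% of probe sets called) with both arrays and -1.65 (adjusted p = 0.266) without IR29 control replicate 1. FL478 minus IR29 was 2.16 (adjusted p = 0.207, 1.38% called) with both arrays and 3.66 (adjusted p = 0.00968) without that one, and IR63731 minus IR29 was 2.08 (adjusted p = 0.279, 0.893% called) and 3.58 (adjusted p = 0.0106). With the remaining array alone, IR29 control at 7.65 stood above the highest Pokkali control array and below the lowest FL478 and IR63731 control arrays.

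The second BURP2 probe set did not pass in either treatment (limma F = 3.87, adjusted p = 0.182 in salt and F = 4.44, adjusted p = 0.146 in control roots). Its genotype differences had the same sign as those of the main probe set in each of the 4 pairs called in salt roots and were smaller: FL478 stood 0.44 above IR29 and 0.60 above Pokkali in salt roots (SE 0.30 each). In control roots the same probe set was higher than Pokkali by 0.92 in FL478 and by 0.98 in IR63731 (SE 0.30 each, adjusted p = 0.103 and 0.0909).

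BURP10 differed between genotypes in control roots (limma F = 10.7, adjusted p = 0.00759), as did 6.68% of probe sets. Here IR63731, at 8.34 ± 1.00, stood above FL478 at 5.62 ± 0.37, Pokkali at 6.73 ± 0.36 (SD, n = 3 each) and IR29 at 6.59 ± 0.22 (SD, n = 2). Of the 6 pairs, IR63731 minus FL478 was called, at 2.72 (SE 0.49, 6.60-fold, adjusted p = 0.00309), where 2.44% of probe sets passed. It remained called with any 1 array left out. IR63731 minus Pokkali was 1.61 (adjusted p = 0.0835) and IR63731 minus IR29 was 1.75 (adjusted p = 0.204). The 3 pairs without IR63731 were not called either. FL478 minus Pokkali was -1.11 (95% confidence interval -2.13 to -0.09, limma adjusted p = 0.253). FL478 minus IR29 was -0.98 (-2.11 to 0.16) and Pokkali minus IR29 was 0.13 (-1.0 to 1.27). The F test had an adjusted p of 0.0236 without the 3 arrays between genotypes, where IR63731 minus FL478 was 2.89 (adjusted p = 0.00851). That F test was not passed without IR63731 control replicate 1 (adjusted p = 0.0534), the highest of the BURP10 control values.

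In salt roots the BURP10 means were 10.02 ± 0.19 in IR63731, 9.39 ± 0.27 in IR29, 8.73 ± 0.99 in FL478 and 8.17 ± 0.92 in Pokkali (SD, n = 3 each). The F test did not pass (F = 5.46, adjusted p = 0.0756), and its adjusted p lay between 0.0183 and 0.211 with 1 array left out. IR63731 minus Pokkali was called at 1.85 (SE 0.49, 3.61-fold, adjusted p = 0.0399), where 3.3% of probe sets passed. But this call was lost with 9 of the 23 arrays left out in turn (adjusted p up to 0.206) and without the 3 arrays between genotypes (adjusted p = 0.0647). The other 5 pairs were not called, the largest of them being IR63731 minus FL478 at 1.29 (95% confidence interval 0.27 to 2.31, adjusted p = 0.295).

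Ordered by mean, BURP10 ran from IR63731, IR29 and FL478 in salt through IR63731 in control (8.34) and Pokkali in salt (8.17) to Pokkali, IR29 and FL478 in control. The control roots of IR63731 thus stood at the level of salt roots of Pokkali, 2 neighbours whose arrays overlapped. Pokkali and IR29 in control also overlapped. Ordered in the same way, BURP2 ran from FL478 and IR63731 in control, through IR63731 and FL478 in salt and IR29 in control, down to Pokkali in control (6.01), IR29 in salt (6.0) and Pokkali in salt (5.67), and the last 3 overlapped. IR63731 was thus among the higher genotypes for both genes, and Pokkali was the lowest in salt for both.

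**Figure D3:**
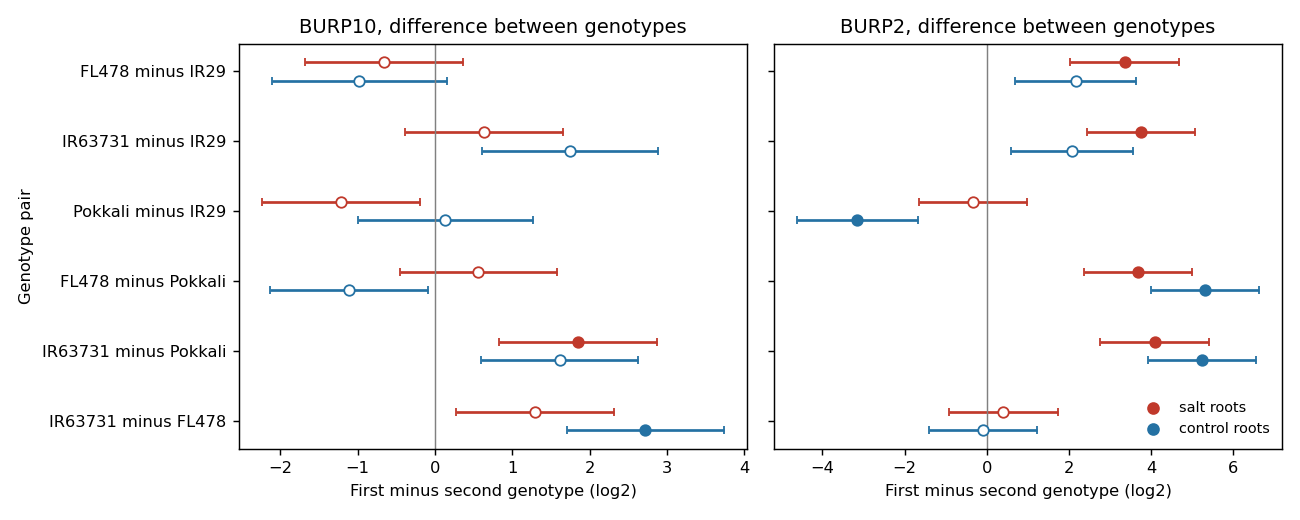
Difference between genotypes (first minus second, log2, horizontal axis) for each of 6 pairs, in salt roots (red) and control roots (blue), for BURP10 and the BURP2 main probe set; bars are 95% confidence intervals, filled points had an adjusted p under 0.05 and open points did not. For BURP2, FL478 and IR63731 were above Pokkali by 3.68 to 5.31 in both treatments, and above IR29 by 3.35 and 3.75 in salt roots.

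Whether the salt difference itself varied between genotypes was tested as an interaction over the 4 genotypes. It was not called for BURP2 (limma F = 3.08, adjusted p = 1.0) or for BURP10 (F = 2.78, adjusted p = 1.0), and 2 of the 57194 probe sets, 0.0035%, passed. For BURP2 the widest pair was Pokkali minus IR29, at 2.82 (95% confidence interval 0.84 to 4.80, adjusted p = 0.954), which was 1.32 without IR29 control replicate 1. For BURP10 it was FL478 minus Pokkali, at 1.67 (0.23 to 3.11, adjusted p = 0.924). For neither gene were the salt differences of 2 genotypes shown to differ.

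Arrays of the same replicate number may share a growth run or harvest, which the labels do not say. A difference between the 3 replicate numbers was called in 7.24% of probe sets but not for BURP2 (limma F = 1.79, adjusted p = 0.468) or BURP10 (F = 0.734, adjusted p = 0.729). A measure of RNA integrity, the value of the 3' minus the 5' probe sets of 4 control genes, averaged 0.689 in salt and 0.605 in control arrays. With that measure as a covariate the mean salt difference was 2.28 for BURP10 and -1.96 for BURP2.

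RefSeq's rice gene table names 9 BURP genes, of which 7 were covered by a probe set of 1 gene; BURP4 and BURP14 had none. Of the 5 besides BURP10 and BURP2, 1 passed as higher in salt in the mean of 4 genotypes and none as lower (limma; 2 as lower at an unadjusted p under 0.05). Among all 17905 genes, 10.7% passed as higher and 5.41% as lower, and the median difference was -0.07 in the 5 family genes against 0.04 over all genes. BURP12 rose by 0.46 (SE 0.14, 1.38-fold, adjusted p = 0.0487), with 9 of 12 salt arrays above the mean of their control group, and it missed the threshold with 17 of 23 arrays left out in turn (adjusted p up to 0.158) and without the 3 arrays between genotypes (0.34, adjusted p = 0.281).

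BURP16, which in rice is related to the polygalacturonase beta subunit, ranged over 8.83 to 10.71 and had a salt difference of -0.32 (SE 0.13, adjusted p = 0.141). BURP13, also called RAFTIN1 and known from the tapetum of anthers, ranged over 3.75 to 4.43 with a difference of -0.16 (SE 0.07, adjusted p = 0.167). BURP3, at 3.14 to 3.87, and BURP17, at 3.23 to 3.97, had differences of 0.01 (SE 0.07) and -0.07 (SE 0.06). In single genotypes none of the 20 gene-by-genotype differences passed, and 2 had an unadjusted p under 0.05, BURP12 in FL478 (0.94, SE 0.27) and BURP16 in IR29 (-0.67, SE 0.28). Single-genotype salt contrasts were passed by 0.96% of probe sets in FL478, 0.0717% in IR63731, 0.341% in Pokkali and 0.343% in IR29.

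BURP16 also differed between genotypes in control roots (F = 11.1, adjusted p = 0.00639, limma), as did 6.68% of probe sets. It lay at 9.76 ± 0.47 in FL478, 10.44 ± 0.24 in IR63731, 9.17 ± 0.15 in Pokkali (SD, n = 3 each) and 10.44 ± 0.09 in IR29 (SD, n = 2). It did not pass in salt roots (F = 4.87, adjusted p = 0.105). The pair IR63731 minus Pokkali was called there, at 0.92 (limma adjusted p = 0.0485), where 3.3% of probe sets passed. Pokkali thus had the lowest mean of BURP16 in control roots, as it had of BURP2. Unlike for BURP2, FL478 minus Pokkali was not called for BURP16 there (0.59, limma adjusted p = 0.236).

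**Figure D4:**
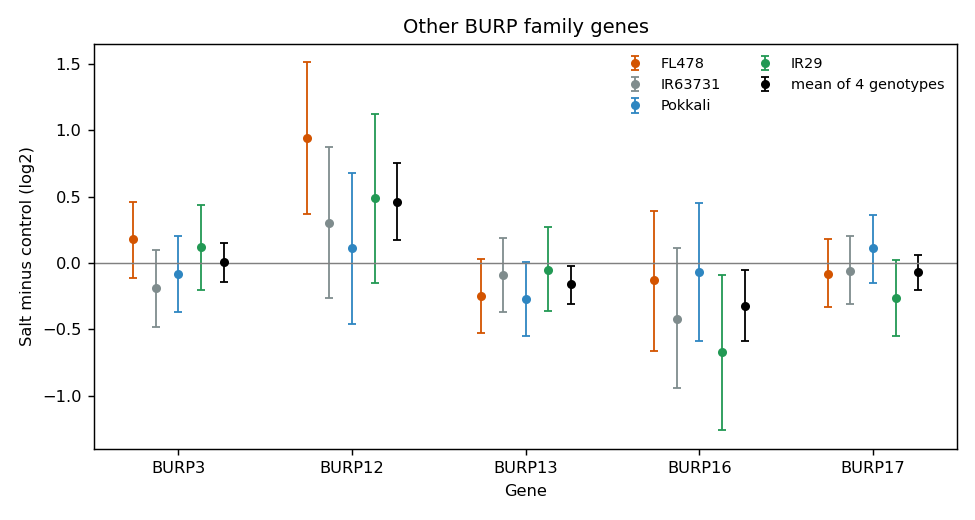
Difference between salt and control roots (log2, vertical axis) for the 5 other BURP genes on the array, in each genotype and in the mean of 4 genotypes (black); bars are 95% confidence intervals. The means lay between -0.32 for BURP16 and 0.46 for BURP12.

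Genes of the abscisic acid and dehydration response, to which RD22 belongs in Arabidopsis, were read from a list of 27 genes. In the mean of 4 genotypes 4 rose and 2 fell, where 10.7% of all genes passed as higher and 5.41% as lower, so the list's shares lay near those of all genes. The median difference was 0.02, against 0.04 over all genes. The count higher was 6 with a replicate block and 3 with the RNA integrity covariate. Among the called genes the largest rises were 1.06 (SE 0.12, limma adjusted p = 2.19e-05) for P5CS2, a proline synthesis gene, and 0.79 (SE 0.12, adjusted p = 0.000557) for RAB21, which encodes a dehydrin. The protein kinase gene SAPK7 rose by 0.31 and the transcription factor gene TRAB1 by 0.18. SALT, a gene for a lectin-like protein first described in salt-treated rice, fell by 0.54 (SE 0.12, adjusted p = 0.00804), and SAPK3 fell by 0.20. Of genes that were not called, MYB2 had a larger difference than P5CS2, at 1.19 (SE 0.38, adjusted p = 0.0622), and SAPK9 had 0.85 (SE 0.33, adjusted p = 0.135). Without the 3 arrays between genotypes 4 passed as higher and 0 as lower, and with 16 of the 23 arrays left out in turn 1 passed as lower.

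Markers of other tissues were read beside these values. Among all genes 10.7% passed as higher and 5.41% as lower. Lists this short can hold few calls at those shares, so nothing is read from their counts. Of 8 root marker genes none passed in either direction (limma; 1 each way at an unadjusted p under 0.05), with a mean level of 7.88 to 8.66 in salt and 7.51 to 8.76 in control arrays. The 8 anther genes, RAFTIN1 among them, had a mean of 3.47 to 3.71 in salt and 3.49 to 3.64 in control arrays, and MSP1 passed as higher (0.36, SE 0.11, adjusted p = 0.0451), a call that was lost with 15 of 23 arrays left out in turn. The 6 green tissue genes had a mean of 4.52 to 4.98 in salt and 4.69 to 5.73 in control arrays. None of them passed, nor did any have an unadjusted p under 0.05. Single genes differed widely, and CAB2R ranged over 4.55 to 9.54 with a salt difference of -0.68 (SE 0.34, limma adjusted p = 0.252). The 7 seed storage genes had a mean of 4.59 to 4.86 in salt and 4.72 to 4.95 in control arrays, and GLUB-5 fell by 0.33. Among them GLB1 lay at 8.57 to 9.5 and GLUA-2 at 7.43 to 8.58, while the others lay at 4.85 or below. The part of tissue makeup in the BURP10 and BURP2 values was not tested.

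Over the 23 arrays, the probe set most like BURP10 among 22435 of a single gene was that of LOC4336067, with a Pearson r of 0.88. It was followed by LOC4332840 (0.87), CCAMK (0.85), LOC4338324 (0.85) and LOC4334756 (0.84). LOC4332840 ranged only over 9.56 to 10.11, LOC4338324 over 9.935 to 10.37 and LOC4334756 over 9.45 to 10.04. Apart from CCAMK, the salt differences of these genes lay between 0.14 and 0.32, against 2.26 for BURP10. CCAMK, the gene of a calcium- and calmodulin-dependent protein kinase known from root symbiosis, ranged over 7.60 to 8.98 and was the member of these 5 with the largest salt difference, 0.68. Within groups, its deviations from the group means had an r of 0.71 with those of BURP10, whereas LOC4332840 had -0.07. Most opposite were LOC4332417 (-0.87), ISP (-0.87) and LOC4338395 (-0.86), with salt differences of -0.52, -0.93 and -0.34. The arrays share treatment, genotype and normalisation, so these values describe likeness and carry no p.

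BURP2 was most like LOC4343487 (r = 0.92), LOC4338398 (0.91), LOC4327840 (0.91), LOC9268385 (0.91) and LOC4351668 (0.88), of 22434 probe sets. Their salt differences lay between -0.63 and -0.19. Since likeness to a gene chosen on its salt difference picked them, these values are a description without a test. Most opposite were LOC4333005 (-0.92), LOC4335323 (-0.92) and LOC4338198 (-0.91), with salt differences of 0.27, 0.33 and 0.24. Without the 3 arrays between genotypes the r of LOC4343487 was 0.93 and that of LOC4333005 was -0.92.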

How the data were processed

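Root RNA of 23 samples was hybridised to 1-colour short-oligonucleotide arrays. The authors deposited log2 values. Per the submitters' processing notes RMA was used; the sources used here give neither its version nor its settings. The table held 57381 rows. Tests used its 57194 rice probe sets and excluded 123 array controls and 64 reporter genes. Per the platform annotation 22436 had 1 gene, 95 several and 34663 none listed. Gene names follow RefSeq's table (matched for 17905 of 17905 genes). Groups came from the labels. A linear model with 8 group means was fitted over all 23 arrays with limma 3.58.1 in R 4.3.3, with eBayes and Benjamini-Hochberg adjustment over all rice probe sets (threshold 0.05). It was tested on simulated data. For a gene with several probe sets, the one with the highest mean over all arrays was used.

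The members and lists were chosen with earlier results of these data known. Named genes were all probe sets of both members, other BURP genes, up to 2 genes each way per list, and, by r, the 5 most like and 3 most opposite genes per member; beyond 2 each way, SAPK7, TRAB1, MYB2 and SAPK9 were named after their values were seen, as were single markers. Lists were matched on symbols, 27 of 41 written for the abscisic acid list; pectin genes and sequences are not analysed here.

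Replicate numbers were checked as pairs: correlations of same-numbered salt and control deviations were above 0.1 in FL478 (0.197 to 0.421) and IR63731 (0.142 to 0.296), but reached -0.066 in Pokkali and -0.179 in IR29, so numbers were not taken to pair samples. Alternatives were the replicate block, leaving out each array, leaving out the 3 arrays between genotypes, probe sets above the median, eBayes with trend and robust, array weights, repeated quantile normalisation, only the arrays compared, the other BURP2 probe set and, added after seeing the data, the RNA integrity measure as covariate.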

Additional observations from a re-analysis of the deposited data

How the results depend on the processing

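With a replicate block the mean salt difference was 2.24 for BURP10 and -1.71 for BURP2, and the block changed no call of either gene; it moved the root marker genes called higher in salt to 3, against 0 without it (2 without the 3 arrays between genotypes and 1 with array weights). Leaving out each of 23 arrays gave mean salt differences of 2.13 to 2.40 for BURP10 and -2.11 to -1.36 for BURP2. The adjusted p of F in control roots then ran over 0.00171 to 0.0534 for BURP10 and 1.14e-06 to 0.000349 for BURP2, and in salt roots over 0.0183 to 0.211 for BURP10 and 7.96e-06 to 0.000555 for BURP2. BURP10 passed in salt roots with array weights (0.0212) and without FL478 salt replicate 1, FL478 salt replicate 3, IR63731 control replicate 3 or Pokkali salt replicate 3 (0.0451, 0.0481, 0.0364, 0.0183). The other BURP2 probe set gave a mean salt difference of -0.44 and an adjusted p of F of 0.146 in control and 0.182 in salt roots.

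Signs turned only for differences that were not called. Without the 3 arrays between genotypes, BURP10 Pokkali minus IR29 in control roots was -0.022, BURP2 IR63731 minus FL478 in salt roots was -0.018, the BURP2 salt effect of FL478 minus IR29 was -0.19 and the BURP3 salt difference was -0.027. BURP3 was -0.0098 with array weights and -0.024 with the integrity covariate, and BURP2 IR63731 minus FL478 in control roots was 0.068 by the other probe set. With 1 array left out, signs turned within -0.022 to 0.34 (BURP10 Pokkali minus IR29, control), -0.067 to 0.88 (BURP10 salt effect, FL478 minus IR29), -0.31 to 0.76 (BURP10 salt effect, IR63731 minus Pokkali), -0.32 to 2.68 (BURP2 salt effect, FL478 minus IR29), -0.38 to 0.28 and -0.084 to 1.03 (BURP2 IR63731 minus FL478, control and salt) and -0.062 to 0.076 (BURP3).

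BURP10 was also called for IR63731 minus Pokkali in control roots (1.74) and Pokkali minus IR29 in salt roots (-1.46) with array weights. The first was also called without FL478 salt replicate 1, IR63731 control replicate 3 or Pokkali salt replicate 3 (adjusted p = 0.0392, 0.0163, 0.0465) and the second without Pokkali salt replicate 3 (0.0452). The salt-root call of IR63731 minus Pokkali was lost with trend and robust (adjusted p = 0.064), the covariate (0.0522) and only the arrays compared (0.0829). Counts of called genes also moved: BURP12 missed the threshold with array weights, repeated quantile normalisation and the covariate; abscisic acid genes called lower were 1, 1 and 0 there; MSP1 and GLUB-5 were not called with the covariate or without the 3 arrays, nor GLUB-5 among probe sets above the median. The cause was not tested. Groups of 2 or 3 arrays limit all of these, and whether the low BURP2 values exceed background was not tested, since no detection calls were used.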

Other observations

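Within groups, the deviations of BURP10 and BURP2 were compared because an opposite pattern was noticed in these arrays, so the p-values are no independent evidence of it. Over the deviations of 23 arrays from their group means, Pearson's r was -0.498 (exact permutation within groups, p = 0.0151) and Spearman's rho was -0.46 (p = 0.0536). These p-values are not adjusted for other relations that could have been noticed. For 14 of 23 arrays the 2 genes deviated in opposite directions, a count for which no chance level was computed. Of all rice probe sets, 1.98% had an r with BURP10 at or below that of BURP2. Without the 2 arrays farthest from the median of the BURP10 deviation, r was -0.24 (exact permutation, p = 0.171); leaving out extreme arrays also narrows the range. No relation is claimed from these values. Without the 3 arrays between genotypes r was -0.548 (exact permutation, p = 0.112). Within replicate numbers 1, 2 and 3 r was -0.64, -0.596 and -0.53 over 8, 8 and 7 arrays. Deviations cancel out within a group, so the values by replicate number are tied to each other and are not independent repeats.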
